A study of Homo sapiens with 6 samples.

Results

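The liver X receptors (LXRs) and genes of cholesterol efflux were followed in AC16 cells. This is an established human line, derived by fusion of ventricular cardiomyocytes with an immortalised fibroblast line. The 10 genes, of 58299 in the table, were listed by name: the receptor genes NR1H2 and NR1H3 and the target or efflux genes ABCA1, ABCG1, PLTP, APOE, NPC1, MYLIP, LPCAT3 and SREBF1. The list was drawn up with the differences between these same libraries known, so the changes of the 10 genes are given as a description and no p-value is attached to them. The control group was 3 libraries of AC16 cells kept in 0.1% DMSO for 72 h. The treated group was 3 libraries of AC16 cells given 100 nM CDDO-Me for 24 h and then 100 nM doxorubicin for 48 h, 72 h in all. CDDO-Me is a synthetic triterpenoid that releases the transcription factor NRF2 from KEAP1, and doxorubicin is an anthracycline cancer drug, a poison of topoisomerase II. Single-drug cells were not analysed here, so the effects of CDDO-Me and doxorubicin cannot be told apart. The labels do not say that replicates were separate cultures. Any p-value below is set against the spread among 3 libraries a group, and that spread may be technical.

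LXRs are nuclear receptors that bind oxysterols and pair with the retinoid X receptor. With ligand they switch on genes that move cholesterol out of the cell: ABCA1 and ABCG1 carry it across the plasma membrane to lipoprotein acceptors, and apolipoprotein E and phospholipid transfer protein load and remodel those particles. They also raise MYLIP (IDOL), which marks lipoprotein receptors for degradation, and the lipid synthesis regulator SREBF1. SREBP factors do the opposite task: when sterols are low they raise cholesterol synthesis and lipoprotein uptake. These pathways are best known from macrophages and liver.

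The libraries held 17150259 to 20193957 counts in genes. Of 16 cardiomyocyte markers, 13 were under 1 CPM (TMM-normalised count, scaled to depth) in all 6 libraries. Among them were TNNT2, MYH6, MYH7, ACTN2 and RYR2, and TNNI3 had 0 counts. GATA4 and TTN were above 1 CPM in every library. GATA4 went from a mean of 17.9 ± 2.12 to 14.3 ± 2.19 CPM and was called lower, with overlapping groups. TTN went from 8.61 ± 0.98 to 11.9 ± 1.31 CPM and was called higher, but 15.6% of its exon bases are shared with other genes. NPPB, from 0.781 ± 0.22 to 0.0482 ± 0.083 CPM, was called lower and passed the filter on low counts through the controls alone. All 11 fibroblast markers were above 1 CPM, and their summed level was 24638 to 27122 CPM in controls and 13201 to 14034 CPM in treated cells. Macrophage markers, relevant because LXR targets are abundant in macrophages, summed to 3.90 to 5.69 CPM in controls and 8.32 to 9.44 CPM in treated cells. Of those 10 markers 6 were under 1 CPM in every library and TYROBP had 0 counts. Of 6 tested, 3 rose, 1 fell and 2 were not called, beside 32.3% higher and 31.2% lower of all tested genes. PTPRC rose from 1.11 ± 0.17 to 3.82 ± 0.45 CPM (n = 3; edgeR adjusted p = 1.49e-08). LYZ and ITGAM had 0 counts in every control. They passed the filter on low counts through the treated libraries alone, so they had to come out higher. Without LYZ and ITGAM, 1 of 4 tested markers rose and 1 fell. CSF1R was called lower, from 1.94 ± 0.70 to 1.18 ± 0.48 CPM (edgeR adjusted p = 0.0479), but its groups overlapped. CD14 (1.21 ± 0.64 and 0.948 ± 0.059 CPM) and CD68 were not called. CD68 shares 85.8% of its exon bases with other genes and LYZ 34.0%, so their counts are uncertain. All 4 genes used to check the treatment were called higher, the NRF2 targets HMOX1 and NQO1 and the p53 targets CDKN1A and MDM2. The part of these cell markers in the results below was not tested, and fewer cells of a type cannot be told apart from less RNA per cell in such samples.

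A second fact of the whole table bears on genes of very low level. Of protein-coding genes, 1341 had 0 counts in the 3 controls and at least 5 in the 3 treated libraries, against 4 with the reverse pattern. Low counts that appear in treated libraries were therefore common far outside the LXR genes.

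The lipid efflux and particle-loading genes ABCA1, PLTP, APOE and the receptor-degrading ligase gene MYLIP were at least 2-fold higher after treatment. NR1H2, NPC1 and LPCAT3 were higher by less than 1.5-fold, SREBF1 was lower, NR1H3 overlapped between groups, and ABCG1 was at the limit of detection. Of the 10 genes, 9 passed the filter on low counts. Of these, 7 were past the call threshold and higher (edgeR quasi-likelihood test, Benjamini-Hochberg adjusted p below 0.05) and 1 was past it and lower. The same rule called 63.5% of all 15575 tested genes, 32.3% of them higher and 31.2% lower. The groups did not overlap in 8 of the 9 genes and in 66.7% of all tested genes. The 4 genes called and at least 2-fold higher stand beside 10.9% of all tested genes, and the 0 called and at least 2-fold lower beside 4.62%. Because the list was chosen on this contrast, nothing is read from these counts.

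**Figure D1:**
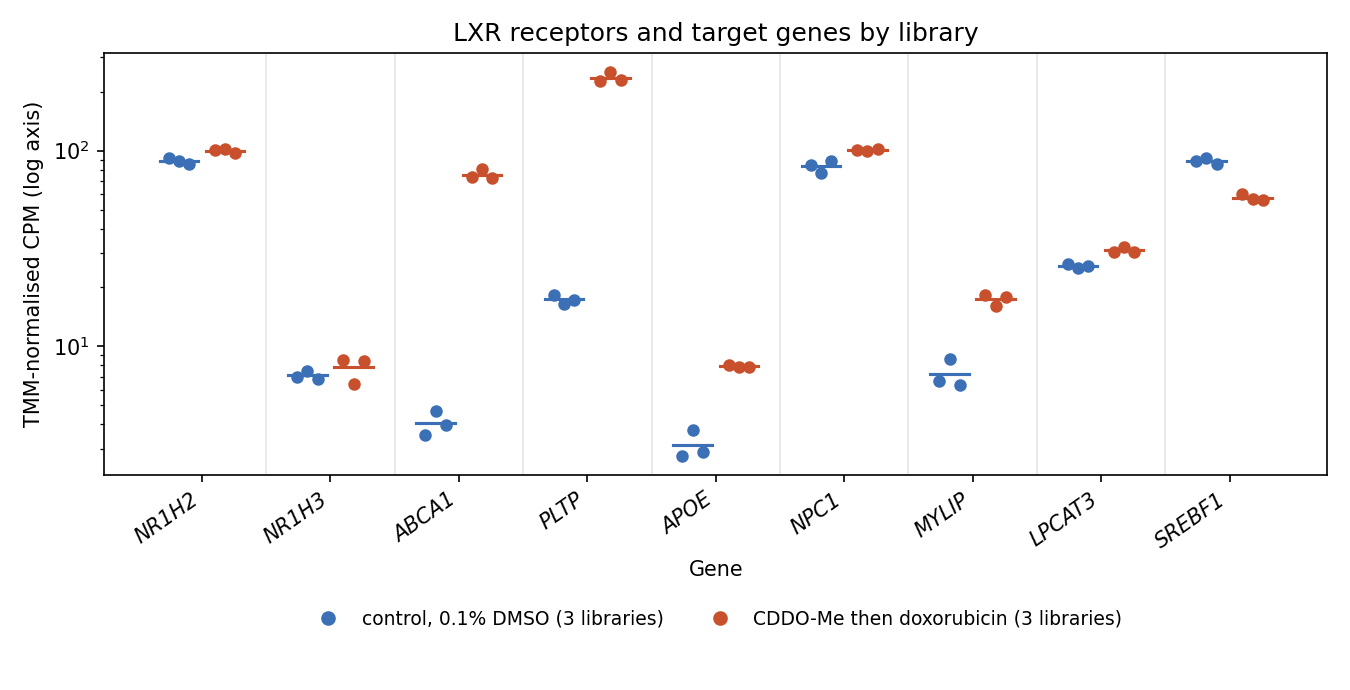
TMM-normalised CPM (vertical log axis) of 9 genes in each of 3 control libraries (blue) and 3 treated libraries (orange), with short bars at the group means. ABCA1 and PLTP have the widest gap between the groups, SREBF1 is lower in all treated libraries, and the groups of NR1H3 overlap. ABCG1, with 0 to 2 counts per library, is not drawn.

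Sequences are shown for 2 features that concern ABCA1, the gene of the 10 with the largest change, and on the pair of genes that moved the other way, SREBF1 and SREBF2. The first feature is the promoter. LXR with its partner binds a direct repeat spaced by 4 bases (DR4), and an element of this kind near the ABCA1 start is textbook knowledge. A pattern wide enough to admit that element, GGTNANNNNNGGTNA, was searched on both strands of windows from 250 bases before to 50 after each annotated start, and so were the TATA box, TATAAA, and other short motifs. The windows are RefSeq's, on GRCh38.p14. They matched 9 of the 10 genes by symbol, ABCG1 being the other, with 15 windows in all. The promoters of ABCA1 (chr9:104928106-104928405, minus strand) and of one of the starts of PLTP (chr20:45912106-45912405, minus strand) read as follows, with the DR4 and TATA box letters in capitals:
ABCA1 promoter: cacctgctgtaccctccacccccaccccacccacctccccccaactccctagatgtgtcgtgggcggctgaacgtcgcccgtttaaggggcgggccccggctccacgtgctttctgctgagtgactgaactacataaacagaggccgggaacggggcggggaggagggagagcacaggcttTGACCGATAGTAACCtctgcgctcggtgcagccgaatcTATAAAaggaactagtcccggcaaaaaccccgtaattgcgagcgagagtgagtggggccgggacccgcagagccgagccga
PLTP promoter: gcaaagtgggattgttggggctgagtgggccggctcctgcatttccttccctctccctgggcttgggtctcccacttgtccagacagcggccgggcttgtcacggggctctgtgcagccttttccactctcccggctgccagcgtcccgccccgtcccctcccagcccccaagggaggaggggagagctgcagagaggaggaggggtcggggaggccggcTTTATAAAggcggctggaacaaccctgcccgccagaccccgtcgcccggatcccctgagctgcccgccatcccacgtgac

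In ABCA1 the DR4 pattern lay at bases -69 to -55 from the start, on the strand opposite to the gene, with the TATA box at -31 to -26. Among the 9 genes with a window, ABCA1 was the one with a DR4 match. That match was fixed in advance, because the pattern was made wide enough to admit the known ABCA1 element. The pattern occurred in 0.626% of the 35116 promoter windows of all genes, and the TATA box in 11.5% of them. PLTP had TATAAA at -28 to -23, overlapped by the same letters on the other strand at -30 to -25. The E-box CACGTG, found in 7.26% of windows, was in ABCA1 (-147 to -142) and in PLTP (43 to 48 after the start). The sterol element TCACNCCAC (1.13% of windows), the antioxidant response element TGACNNNGC (13.3%) and the p53 response element (0.0171%, full-length consensus with no spacer) had no match in the windows of the 9 genes. These matches are letters in a short window, and factor binding was not measured.

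The second feature is microRNA-33, a post-transcriptional repressor of ABCA1 encoded within the SREBP genes. The hsa-miR-33b-5p sequence (chr17:17813897-17813916, minus strand) lies in an intron of SREBF1 and that of hsa-miR-33a-5p (chr22:41900949-41900969, plus strand) in an intron of SREBF2. The mature sequences from RefSeq (GRCh38.p14) share their seed, bases 2 to 8, in capitals:
hsa-miR-33b-5p: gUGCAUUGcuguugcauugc
hsa-miR-33a-5p: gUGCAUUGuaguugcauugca

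The 7 letters that pair with this seed, CAATGCA, were looked for in the 3' untranslated region of the GENCODE transcript with the longest coding sequence. ABCA1 had 4 matches, NPC1 had 1, and the chosen transcripts of the other 8 genes had none. Of 13036 tested protein-coding genes, 7.78% had at least 1 match and 0.921% at least 2. Matches in ABCA1 were fixed in advance, because microRNA-33 was chosen as a known repressor of ABCA1. Nothing is read from their number beside these shares. Of the ABCA1 matches, 3 lay within 30 bases (chr9:104784155-104784184, minus strand, GRCh38). Matches 1 and 2 start at bases 135 and 140 of the untranslated region, so they share letters. Overlapping matches were counted separately, here and over all genes. The fourth was at chr9:104782833-104782854, and the NPC1 match was at chr18:23531873-23531894, both on the minus strand. The matches are in capitals:
ABCA1, matches 1 to 3: tattCAATGCAATGCAattCAATGCAatga
ABCA1, match 4: ttttttaattgcaaCAATGCAa
NPC1, match: ctgtaaaggccaatCAATGCAc

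Poly(A) libraries do not measure mature microRNAs, so only the host transcripts are known here. Both hosts were lower after treatment, SREBF1 as given below and SREBF2 from 312 ± 17.5 to 179 ± 6.75 CPM (n = 3).

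The receptors came first. NR1H2 (LXR beta; ENSG00000131408, GRCh38 chromosome 19, 50329653 to 50382982), the broadly expressed LXR, stood at 91.5, 88.6 and 85.7 CPM in the control libraries and at 101, 102 and 97.2 CPM in the treated ones. The groups did not overlap, yet the gap between the nearest libraries was small, and the log2 change was 0.18 (SE 0.054). NR1H3 (LXR alpha; ENSG00000025434, chromosome 11, 47248300 to 47269032), the form most abundant in liver, fat and macrophages, was at 6.95, 7.50 and 6.82 CPM in controls. In treated libraries it was at 8.53, 6.45 and 8.40 CPM, so that treated replicate 2 was below every control and the other treated libraries were above. Its log2 change of 0.14 (SE 0.14) was no larger than its error. Per length of transcript, NR1H2 was at 23.6 ± 0.79 RPKM (CPM per kilobase of exon) in controls and NR1H3 at 1.56 ± 0.079, and this order held in treated cells (26.7 ± 0.69 and 1.72 ± 0.26 RPKM, n = 3).

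ABCA1 (ENSG00000165029, chromosome 9, 104781002 to 104928237) hands cholesterol and phospholipid to lipid-poor apolipoprotein. It was among the less abundant of the tested genes in controls, at 61, 77 and 73 counts or 3.50, 4.66 and 3.95 CPM. In treated libraries it had 1519, 1638 and 1536 counts, or 73.2, 80.6 and 72.5 CPM. The lowest treated library was far above the highest control, and the fold difference was 18.7 (log2 change 4.22, SE 0.096). A smaller log2 change was found in 98.9% of tested genes. Likeness to ABCA1 was the distance between gene-centred log2 values of CPM plus 0.5 over the 6 libraries. Compared were 10455 protein-coding genes with a mean of at least 5 CPM. The 5 most like ABCA1 were GRIN2C, IL1B, TNFRSF14, SLC52A1 and ESM1 (distances 0.30 to 0.38 on the log2 scale). The log2 changes of these 5 genes in edgeR were 4.03 to 5.49. Large rises were fixed in advance, because the distance picks genes whose groups differ as those of ABCA1 do. GRIN2C, TNFRSF14, SLC52A1 and ESM1 had control means of 0.230 to 1.73 CPM and reached the mean of 5 CPM through the treated libraries alone. SLC52A1 and ESM1 had control means of 0.230 and 0.459 CPM, so the added 0.5 made their change smaller in this distance.

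ABCG1 (ENSG00000160179, chromosome 21, 42199689 to 42297244), which passes cholesterol on to mature HDL, had 0 counts in each control and 2, 1 and 2 counts in the treated libraries. The treated libraries held 54.3% of the depth, and the exact 95% binomial interval for their share of the 5 counts was 47.8% to 100%. A difference in ABCG1 was thus not detectable at this depth, and the interval covers counting error only. ABCG1 is also among the genes, described above, with 0 control counts and at least 5 treated ones.

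The genes of extracellular lipid particles followed. PLTP (ENSG00000100979, chromosome 20, 45898621 to 45912155) encodes the protein that transfers phospholipid between lipoproteins. It was at 18.3, 16.4 and 17.3 CPM in controls and at 228, 252 and 230 CPM in treated libraries. All treated libraries were above all controls, with a 13.6-fold difference (log2 change 3.77, SE 0.064). Of PLTP exon bases, 7.87% lie in exons of CTSA on the other strand, which had 4604 to 5713 counts in controls and 7276 to 7574 in treated libraries.

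APOE (ENSG00000130203, chromosome 19, 44905754 to 44909393), the apolipoprotein that accepts cellular cholesterol and is a ligand of lipoprotein receptors, was at 2.76, 3.75 and 2.87 CPM in controls. In the treated libraries it was at 8.05, 7.87 and 7.83 CPM, above every control and closely grouped. The fold difference was 2.54 (log2 change 1.34, SE 0.17), from 48 to 62 counts per control and 160 to 167 per treated library.

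MYLIP (ENSG00000007944, chromosome 6, 16129125 to 16148248), a ubiquitin ligase of lipoprotein receptors, was at 6.60, 8.59 and 6.33 CPM in controls and at 18.3, 16.1 and 17.8 CPM in treated libraries. The groups did not overlap, and the difference was 2.43-fold (log2 change 1.28, SE 0.12). Among the receptors that MYLIP acts on, the LRP8 transcript fell and the VLDLR transcript rose, with values below.

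NPC1 (ENSG00000141458, chromosome 18, 23506184 to 23586898) releases cholesterol from lysosomes. It was at 84.9, 77.0 and 88.7 CPM in controls and at 101, 99.1 and 102 CPM in treated libraries, a log2 change of 0.27 (SE 0.056). The groups did not overlap. RMC1, which shares 5.98% of NPC1 exon bases on the other strand, had 589 to 671 counts in controls and 1211 to 1285 in treated libraries, and its part in the NPC1 difference was not tested.

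LPCAT3 (ENSG00000111684, chromosome 12, 6976186 to 7018510), which puts polyunsaturated fatty acids into membrane phospholipids, was at 26.2, 25.2 and 25.6 CPM in controls and at 30.3, 32.3 and 30.3 CPM in treated libraries. The log2 change was 0.27 (SE 0.079), with no overlap of the groups. This value is uncertain because 65.6% of the LPCAT3 exon bases lie in exons of EMG1 on the other strand and the libraries carry no strand information. EMG1 itself had 338 to 373 counts in controls and 331 to 386 in treated libraries.

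SREBF1 (ENSG00000072310, chromosome 17, 17810399 to 17837002), which drives fatty acid synthesis and is itself an LXR target, was the member that was lower. It was at 88.2, 91.6 and 85.1 CPM in controls and at 60.0, 56.4 and 55.6 CPM in treated libraries. Every treated library was below every control, and the log2 change was -0.62 (SE 0.059). The count sums the SREBF1 isoforms, of which the 1c form is the LXR-responsive one, and they were not separated here. Of its exon bases 6.92% lie in exons of RAI1.

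**Figure D2:**
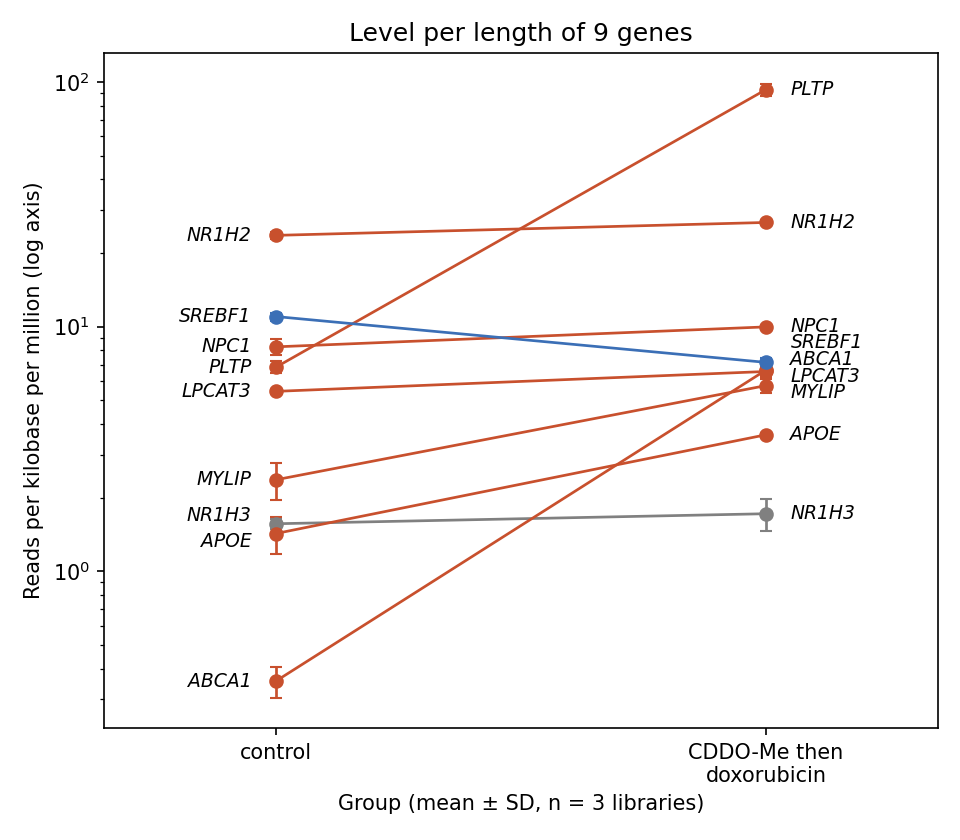
Level per length (RPKM, vertical log axis; mean ± SD, n = 3) of 9 genes in control and treated libraries, joined by lines (orange: called higher, blue: called lower, grey: not called). PLTP moves from the fourth to the first place and ABCA1 from the lowest to near SREBF1 and LPCAT3.

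On the per-length scale the order in controls was NR1H2, SREBF1 (11.0 ± 0.41 RPKM), NPC1 (8.27 ± 0.59), PLTP (6.83 ± 0.38), LPCAT3 (5.44 ± 0.11), MYLIP (2.37 ± 0.41), NR1H3, APOE (1.43 ± 0.25) and ABCA1 (0.356 ± 0.051), with ABCG1 at 0. NR1H3 and APOE were the neighbours whose control libraries overlapped. The place of LPCAT3 is uncertain in both groups. Its RPKM divides by all its exon bases, 65.6% of which lie in exons of EMG1, and how reads there were counted is not given. In treated cells PLTP stood first at 93.1 ± 5.29 RPKM, followed by NR1H2, NPC1 (9.97 ± 0.16), SREBF1 (7.14 ± 0.29), ABCA1 (6.65 ± 0.40) and LPCAT3 (6.56 ± 0.24). The last 3 of these overlapped with their neighbours and their order is not resolved. MYLIP (5.74 ± 0.37), APOE (3.61 ± 0.051), NR1H3 and ABCG1 (0.0131 ± 0.0044) came after them. Among all tested genes, the PLTP level rose from the 60.0th to the 97.8th percentile and the ABCA1 level from the 13.9th to the 59.4th. The spread between control libraries, as SD over mean of CPM, was 14.4% for ABCA1, 17.4% for APOE and 17.1% for MYLIP, and at most 7.16% for the other tested genes of the list. In treated libraries it was at most 6.44% except for NR1H3, at 15%.

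Further LXR target genes changed in both directions. Of 18 listed, 10 were tested, and 5 of these rose and 3 fell, beside 32.3% higher and 31.2% lower of all tested genes. The median log2 change was 0.25 beside 0.02. ABCG8 had fewer than 10 counts in every control and passed the filter through the treated libraries alone, so it had to come out higher. Without it 4 of 9 rose and 3 fell, with a median of 0.22. SCD, the stearoyl-CoA desaturase, was at 572, 576 and 576 CPM in controls and at 114, 118 and 119 CPM in treated libraries (log2 change -2.29, SE 0.048). FASN, the fatty acid synthase, fell by 0.78 (SE 0.047) and PNPLA3, a lipid droplet protein, by 0.46 (SE 0.093) on the log2 scale. MERTK, a receptor for the uptake of dead cells, was at 3.39, 3.57 and 3.19 CPM in controls and at 7.13, 7.23 and 7.60 CPM in treated libraries (log2 change 1.11, SE 0.16). The sterol transporter gene ABCG4 was at 0.345, 0.786 and 0.541 CPM and then 1.73, 1.38 and 1.37 CPM (log2 change 1.42, SE 0.38). Adjusted p-values from edgeR ranged from 1.04e-46 (SCD) to 0.00104 (ABCG4) over these 5 genes. MID1IP1, a regulator of fatty acid synthesis, rose from 38.0 ± 5.38 to 80.4 ± 2.52 CPM (n = 3). SMPDL3A (log2 change 0.22, SE 0.15) and APOC1 (-0.20, SE 0.30) were not called. APOC1 shares 43.2% of its exon bases with other genes.

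**Figure D3:**
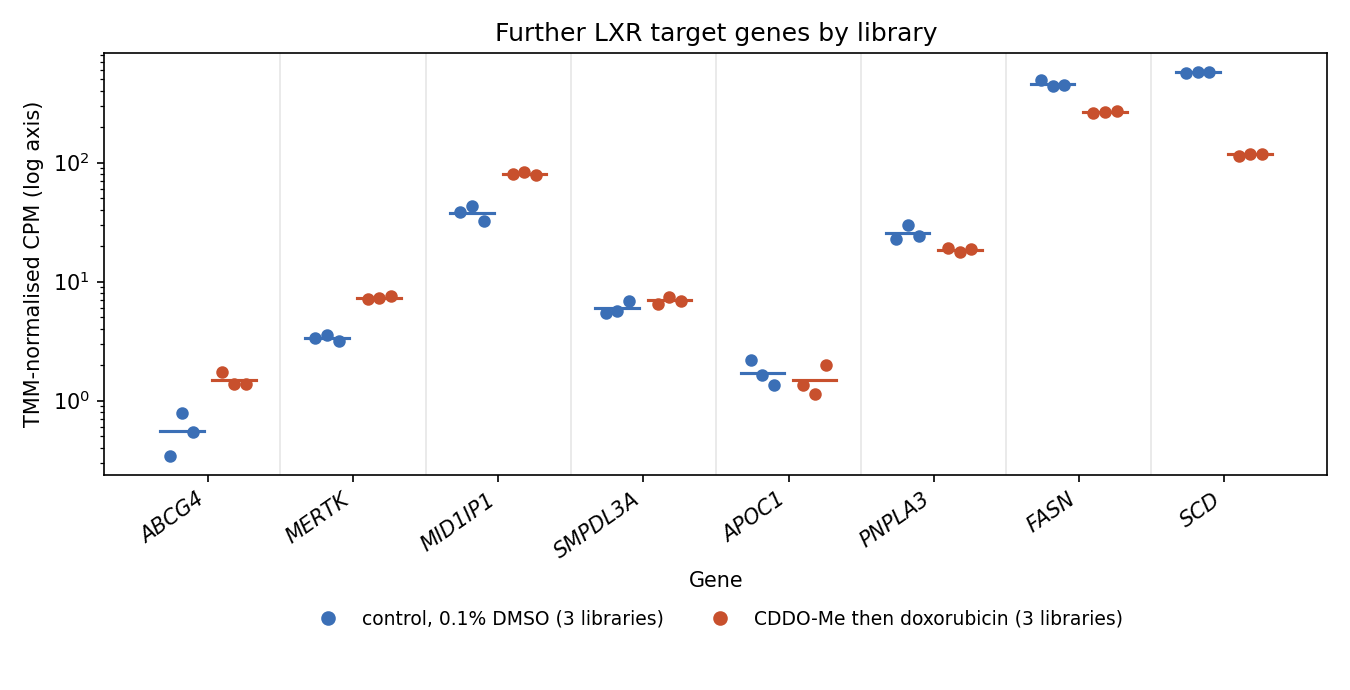
TMM-normalised CPM (vertical log axis) of 8 further LXR target genes in each of 3 control (blue) and 3 treated (orange) libraries, with bars at the group means. ABCG4, MERTK and MID1IP1 are higher in every treated library, while PNPLA3, FASN and SCD are lower in every treated library. SMPDL3A and APOC1 overlap, and 2 of the 10 tested genes, ABCG8 among them, are not drawn.

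ABCG8, which with ABCG5 forms the sterol pump of liver and gut, had 1 count over all controls and 76 over all treated libraries. The depth-scaled ratio was 63.9 with an exact 95% counting interval of 11.1 to 2557. The control count was in replicate 2. Without that library the fitted log2 change of ABCG8 went from 5.58 to 7.59, with 0 control counts left, so neither value is a bound. ABCG5 had 0 control counts and 15 treated ones. ABCG5 is thus among the genes, described above, with 0 control counts and at least 5 treated ones, and ABCG8 was 1 count from it. Their level stayed low, at 1.22 ± 0.18 CPM for ABCG8 and 0.241 ± 0.13 CPM for ABCG5 in treated cells.

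**Figure D4:**
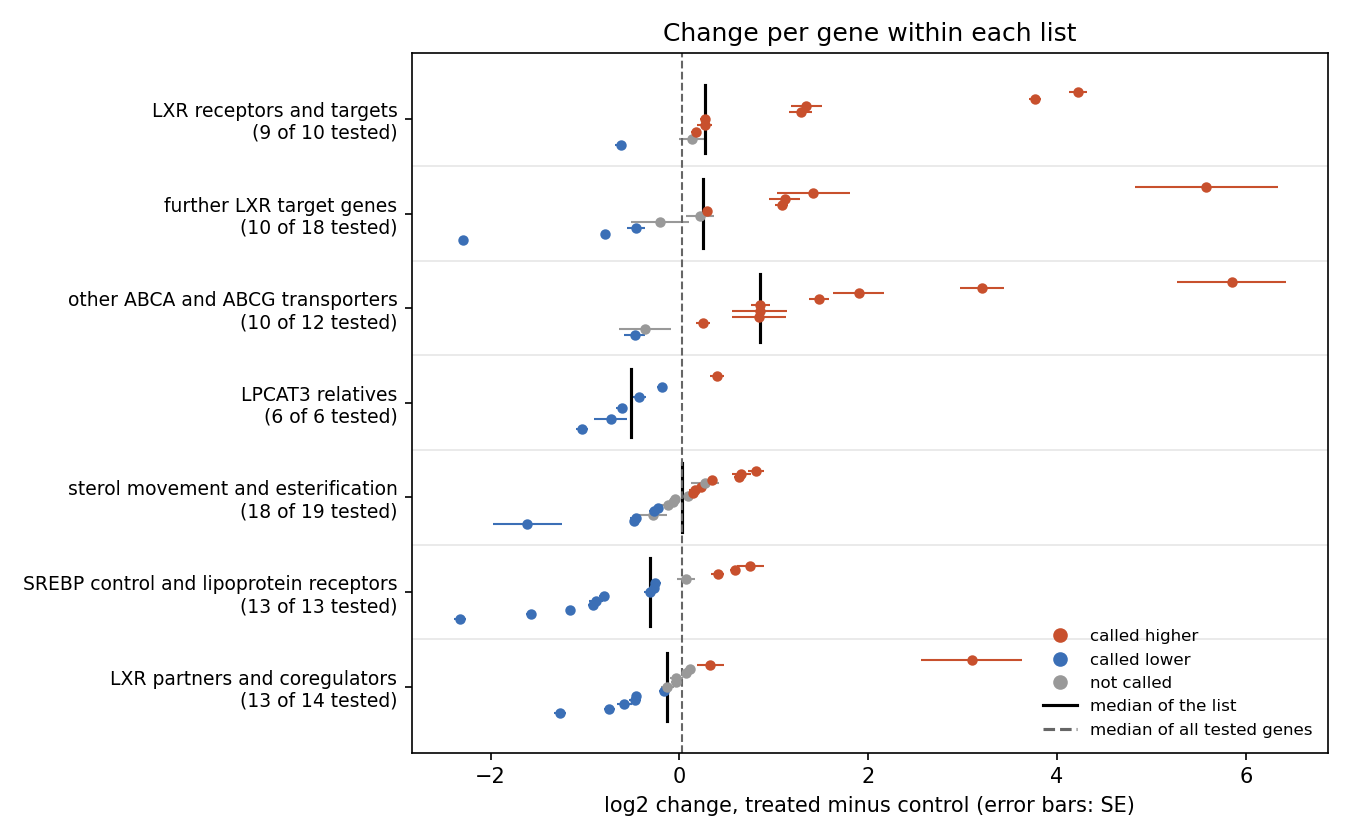
Log2 change, treated minus control, with its SE, for each tested gene of 7 lists (orange: called higher, blue: called lower, grey: not called). Black bars mark the list medians, from 0.85 for the other ABCA and ABCG transporters to -0.52 for the relatives of LPCAT3, and the dashed line the median of all tested genes, 0.02.

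In the other members of the ABCA and ABCG transporter subfamilies, lipid exporters for the most part, 8 of 10 tested genes rose and 1 fell, beside 32.3% higher and 31.2% lower of all tested genes. The median log2 change was 0.85. ABCA13 passed the filter through the treated libraries alone, and without it 7 of 9 rose, with a median of 0.85. Of these 7, ABCA3, ABCA4, ABCA10 and ABCA12 had low control means, 0.764 to 1.27 CPM. ABCA2, ABCA5 and ABCA7 had control means of 43.5, 12.9 and 9.16 CPM. ABCA3, ABCA4, ABCA10 and ABCA12 had 13 to 27 counts per control, so they lie outside the pattern of 0 control counts described above. The part of low level in their calls was not tested. ABCA12, the ceramide transporter of skin, was at 0.747, 0.786 and 0.758 CPM in controls and at 7.52, 6.99 and 6.79 CPM in treated libraries (log2 change 3.21, SE 0.23). ABCA13 had 2 control counts in all and 160 treated ones, a depth-scaled ratio of 67.3 (exact 95% counting interval 18.3 to 560). Both control counts were in replicate 2, and without that library the fitted log2 change of ABCA13 went from 5.85 to 8.66, again with 0 control counts left. ABCA4, the retinoid transporter of photoreceptors, rose by 1.90 (SE 0.27). ABCA7, the closest relative of ABCA1, rose from 9.16 ± 1.28 to 25.5 ± 1.07 CPM (log2 change 1.48, SE 0.10). It was chosen for that kinship after its value was seen. ABCG2, a drug and urate exporter, fell by 0.47 (SE 0.11). All 9 calls of this list had an edgeR adjusted p of at most 0.00859.

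Among SREBP control genes and lipoprotein receptors, 9 of 13 fell and 3 rose, beside 31.2% lower and 32.3% higher of all tested genes, and the median log2 change was -0.31. INSIG1, the sterol-dependent brake on SREBP export, was at 199.7, 211 and 197 CPM in controls and at 92.6, 89.8 and 91.0 CPM in treated libraries (log2 change -1.15, SE 0.051). LRP8, a substrate of MYLIP that shares 10.3% of its exon bases with other genes, fell from 52.3 ± 0.43 to 28.4 ± 3.41 CPM. VLDLR, another substrate of MYLIP, rose from 6.11 ± 1.23 to 10.3 ± 1.82 CPM and the scavenging receptor gene LRP1 from 564 ± 40.7 to 847 ± 63.9 CPM (n = 3 each). The edgeR adjusted p of the genes named here was at most 7.80e-06, that of VLDLR.

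Of 18 tested genes of sterol movement and esterification, 7 rose and 5 fell. Calls made up 66.7% of this list beside 63.5% of all tested genes, and both medians were 0.02, so the list as a whole was near the background. NPC2, which hands lysosomal cholesterol to NPC1, was at 57.2, 54.8 and 53.7 CPM in controls and at 86.5, 89.3 and 81.3 CPM in treated libraries (log2 change 0.63, SE 0.059). LIPA, the lysosomal lipase that frees cholesterol from its esters, fell from 124 ± 5.58 to 89.8 ± 1.98 CPM. LCAT, which esterifies cholesterol on HDL, rose by 0.81 (SE 0.087) and GRAMD1B, a sterol carrier at membrane contacts, by 0.65 (SE 0.10) on the log2 scale. CAV1, caveolin 1, fell from 1044 ± 18.8 to 749 ± 61.2 CPM. SOAT2, the esterifying enzyme of liver and gut, fell from 1.82 ± 0.36 to 0.592 ± 0.18 CPM, while SOAT1, the widely expressed form, rose from 165 ± 9.48 to 210 ± 3.95 CPM. SOAT1 was added after its value was seen. All of these had an edgeR adjusted p of at most 9.68e-05, and LCAT shares 12.8% of its exon bases with other genes.

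Of 6 tested acyltransferase genes related to LPCAT3, 5 fell and 1 rose, beside 31.2% lower and 32.3% higher of all tested genes, with a median log2 change of -0.52. MBOAT2 was at 95.5, 95.5 and 103 CPM in controls and at 50.8, 49.6 and 43.8 CPM in treated libraries (log2 change -1.03, SE 0.061). MBOAT1 fell by 0.73 (SE 0.17) and LPCAT2 by 0.61 (SE 0.061), while LPCAT1, which makes surfactant-type phosphatidylcholine, rose by 0.40 (SE 0.076) on the log2 scale. Each of these was called by edgeR with an adjusted p of at most 2.44e-04.

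Partners and coregulators of LXR were measured in 13 of 14 genes, of which 2 rose and 6 fell. Calls made up 61.5% of this list beside 63.5% of all tested genes, and the median log2 change was -0.13. PPARGC1A passed the filter through the treated libraries alone, and without it 1 of 12 rose and 6 fell, with a median of -0.14. The obligate partner genes RXRA (log2 change -0.03, SE 0.066; adjusted p = 0.682) and RXRB (0.11, SE 0.053; adjusted p = 0.0585) were not called by edgeR. They were named for that role after their values were seen. TBL1XR1, a subunit of the NCoR corepressor complex, was at 94.4, 107 and 111 CPM in controls and at 46.0, 42.1 and 41.4 CPM in treated libraries (log2 change -1.27, SE 0.062). NRIP1, a corepressor of nuclear receptors, fell by 0.74 (SE 0.059) and the coactivator gene NCOA1 by 0.58 (SE 0.080). PPARGC1A, a coactivator of mitochondrial genes, rose from 0.131 ± 0.079 to 1.19 ± 0.091 CPM, with 1 to 4 counts per control. GPS2, a further NCoR subunit, had a log2 change of 0.33 (edgeR adjusted p = 0.0402). Its groups overlapped, and its call was lost without control replicate 2 (edgeR adjusted p = 0.3), control replicate 3 (0.106), treated replicate 1 (0.0698) or treated replicate 3 (0.145), and with DESeq2 (0.0953). Of its exon bases 52.5% lie in exons of other genes.

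Enzymes that make or inactivate oxysterols, the LXR ligands, were mostly near the limit of detection. Of 8 listed 3 were tested, and 2 fell, beside 31.2% of all tested genes. One of them, HSD3B7, a bile acid enzyme, went from 6.50 ± 0.45 to 4.01 ± 0.57 CPM (n = 3; edgeR adjusted p = 2.47e-04). HSD3B7 shares 64.7% of its exon bases with other genes. CYP27A1, the sterol 27-hydroxylase, was at 0.772 ± 0.27 and 0.998 ± 0.16 CPM and was not called. CH25H had 1 control count and 8 treated ones, and CYP46A1 had 0 and 21. CYP46A1 is thus among the genes with 0 control counts and at least 5 treated ones. Sterols were not measured.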

How the data were processed

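The labels' protocols describe unstranded, poly(A)-selected TruSeq libraries from AC16 monolayers. What the authors deposited is a single table of raw read counts for 58299 genes in 6 libraries, with an exon length per gene. STAR, SAMtools, Subread, featureCounts and hg38 (GRCh38) are named in the submitters' processing notes, and versions, annotation release and settings are not given in the sources used here. GENCODE release 29 held 58179 of the gene identifiers.

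Depth was 17150259 to 20193957 counts. The filter on low counts (edgeR filterByExpr, minimum count 10) kept 15575 genes. These were scaled by TMM and tested with edgeR 4.0.16 (quasi-likelihood; R 4.3.3), with Benjamini-Hochberg adjustment over all of them. The SE is the log2 change over the square root of F. RPKM used the deposited lengths. Replicates differed by more than counting noise (chi-square over degrees of freedom 2.84 to 3.77).

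The genes and lists were chosen with earlier results of these data known. Named beside the 10 genes were, from each list, at most 3 called genes with the largest change in each direction, the 5 genes most like ABCA1, and genes that share exons with the 10. ABCA7, SOAT1, RXRA, RXRB, MID1IP1, SMPDL3A, APOC1, ABCG5, SREBF2, LRP8, CYP27A1, CH25H, CYP46A1 and the cell markers were named after their values were seen. Some genes that this rule names are not reported here. Alternatives were other scalings (RLE, upper quartile, total counts), other filters, DESeq2 1.42.0, limma-voom (limma 3.58.1), a replicate block, each library left out, an adjusted p of 0.01, glmTreat at 1.5-fold, and TPM for levels.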

Additional observations from a re-analysis of the deposited data

How the results depend on the processing

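The 9 tested LXR genes kept their direction and their side of the threshold under every alternative tried except glmTreat. Tested against a 1.5-fold change with glmTreat, 2993 of the 15575 genes were called in place of 9893. ABCA1, PLTP, APOE and MYLIP were then the 4 called higher, and 0 of the 10 were called lower (0 also at an unadjusted p below 0.05 with glmTreat). DESeq2, which tests against no change and is thus another test, called 1 lower. NR1H2 (log2 change 0.18), NPC1 (0.27), LPCAT3 (0.27) and SREBF1 (-0.62) lost their call there, the test being one against a larger change. Without LPCAT3, which shares exons with EMG1, 6 genes were called higher.

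With total-count scaling the median over all genes went from 0.02 to 0.15 on the log2 scale, and the share of higher genes among the calls from 50.8% to 63.8% (61.9% with glmTreat). The NR1H2 log2 change ranged from 0.14 to 0.30 and that of SREBF1 from -0.66 to -0.49 over the alternatives. Of 33 genes named from the other lists, GPS2 changed its call in settings other than glmTreat, and 15 lost their call with glmTreat. With no filter on low counts, 11 of the further LXR targets were called higher in place of 5. Over all genes 6131 of 36005 tested were then higher, in place of 5028 of 15575. Genes that the filter had removed, such as ABCG5 with 0 control counts, were tested in that setting. With total-count or upper-quartile scaling 4 of the partners and coregulators were called higher in place of 2. Over all 15575 tested genes, 6355 were higher with total counts and 5571 with upper quartile, in place of 5028.

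Replicate numbers did not pair the libraries: the deviations of same-numbered libraries correlated at -0.036, -0.019 and -0.013. With a replicate block 9653 genes were called, 7 of the LXR genes higher and 1 lower. Leaving out 1 library in turn gave 9283 to 9695 calls. Leaving out list genes that passed the filter through 1 group alone, whose values stand in the report, was added after seeing the data. Depth limits ABCG1, ABCG5, ABCG8 and ABCA13, whose control counts were 0 to 2.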
